A study of Mus musculus with 6 samples.

Results

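The cell death machinery of mouse colorectal cancer organoids was followed through 35 genes of apoptosis, necroptosis and pyroptosis, chosen by name from these pathways. All 35 had a row among the 24190 genes counted, and 34 passed the expression filter and were among the 14692 genes tested. The organoids were of the MTO54 line, a mouse tumour organoid line of colorectal cancer with the AKP genotype, which was carried by treated and control samples alike. Both groups had 3 samples, and the comparison asked what changes in the transcriptome of the tumour cells under chemotherapy. Folfiri here combined 5FU, an antimetabolite, at 50 μg/μl (the unit as the labels give it) with SN38, the active metabolite of the topoisomerase I inhibitor irinotecan, at 100 nM. It was added 2 days after single cells had been seeded and was left for 2 days by the labels, although a figure legend of the study gives a longer treatment, while the control samples received complete stem cell medium. The samples were of 1 organoid line and are described as biological replicates, but no source used here says whether they came from separate cultures or experiments, so p-values measure the spread between these samples, which may be technical.

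Apoptosis by the mitochondrial route is decided within the BCL2 family: BH3-only proteins sense damage, anti-apoptotic members bind them, and pore-forming effectors open the outer mitochondrial membrane when they are no longer held back. Cytochrome c then assembles APAF1 and caspase-9 into the apoptosome, which activates executioner caspases, while death receptors reach the same caspases through adaptor proteins and caspase-8. When caspase-8 is inactive, RIPK1 and RIPK3 can pass the signal to MLKL, which ruptures the plasma membrane in necroptosis, and inflammatory caspases cleave gasdermin D, which opens pores in pyroptosis. The intestinal epithelium is known to use all of these routes, and most of these proteins are regulated by cleavage, binding or phosphorylation, which messenger RNA does not measure.

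The read counts summed to between 22103591 and 30098210 per sample. Levels are given as CPM, read counts per 1000000 counts of the sample after TMM scaling, and differences as log2 fold changes of Folfiri over control with adjusted p-values from edgeR's quasi-likelihood test with Benjamini-Hochberg adjustment over all genes tested. Control sample 1 and Folfiri sample 3 stood further from their groups than the other samples did from each other: the chi-square per degree of freedom between 2 replicates was 22.4 to 23.7 for pairs with control 1 and 3.84 between the other controls, and it was 11.9 to 12.3 for pairs with Folfiri 3 and 3.55 between the other treated samples. The summed level of 8 epithelial markers was 5985 to 6934 CPM in the controls and 4816 to 5016 CPM after Folfiri, with 5 of the 8 lower and 1 higher, and the epithelial label held in every sample. The summed immune markers stayed between 21.4 and 26.2 CPM and came almost wholly from Cd68. At most 8 counts of Lyz2, Tyrobp, Laptm5 or Itgam were found in any sample. Ptprc had 7 to 13 counts in the controls against 31 to 35 after Folfiri. Cd79a had 3, 3 and 3 counts against 5, 10 and 8, and Coro1a 3, 3 and 2 against 3, 6 and 8. Fibroblast markers summed to 1.08 to 1.44 CPM in the controls and 2.03 to 2.45 CPM after Folfiri, but they moved in different directions. Dcn had 2, 0 and 0 counts in the controls and 19, 26 and 20 after Folfiri, and Pdgfra 11, 7 and 10 and 40, 31 and 36. Col1a1 went from 17, 26 and 17 counts to 11, 9 and 8. Endothelial markers summed to 72.3 to 125 CPM and 65.7 to 76.4 CPM, nearly all of it Cdh5. The part of these markers in the results below was not tested.

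Of the 34 cell death genes tested, 17 were higher and 12 were lower after Folfiri, and 5 did not pass the threshold of 0.05. The called share, 85.3% of the genes tested, has to be read against a response in which 79.1% of all genes tested passed, with 40.3% higher and 38.8% lower. The same held for size, since 12 of the genes changed at least 2-fold, 6 in each direction, while 36.3% of all genes tested did. Samples of the 2 groups did not overlap in 29 of the 34, and they did not overlap in 81.4% of all genes tested. The median log2 fold change was 0.14 over the cell death genes and 0.02 over all genes, and the median absolute change was 0.68 and 0.73. These shares and sizes lay near those of all genes, so the account below turns on which parts of the machinery rose and which fell. In bulk RNA, fewer cells of a kind and less RNA per cell cannot be told apart, for any of these genes.

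**Figure D1:**
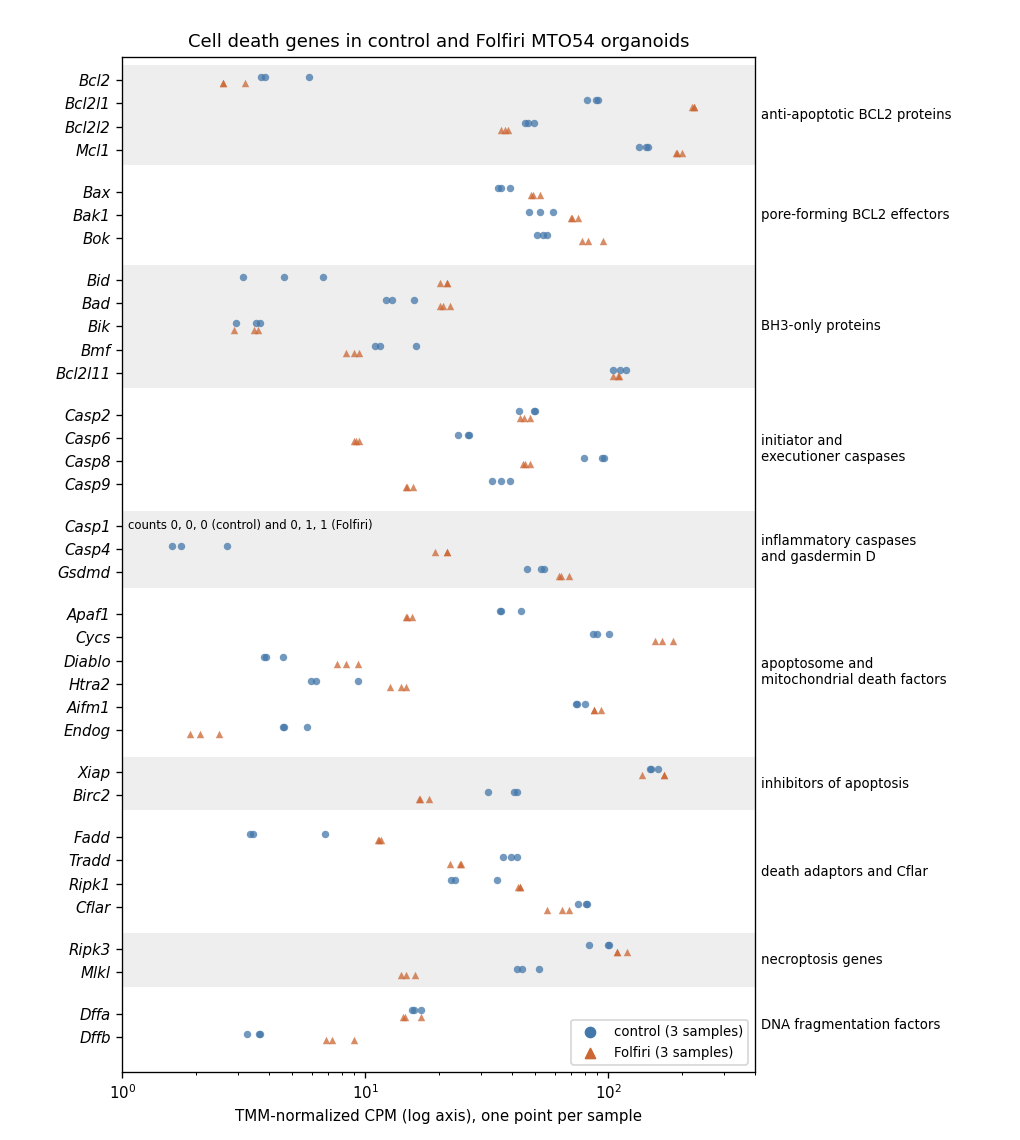
TMM-normalized CPM (log axis) of the 35 cell death genes, one point per sample, with circles for the 3 control samples and triangles for the 3 Folfiri samples, grouped by role. The 2 groups are apart in 29 of the 34 genes tested and overlap for Bik, Bcl2l11, Casp2, Xiap and Dffa.

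**Figure D2:**
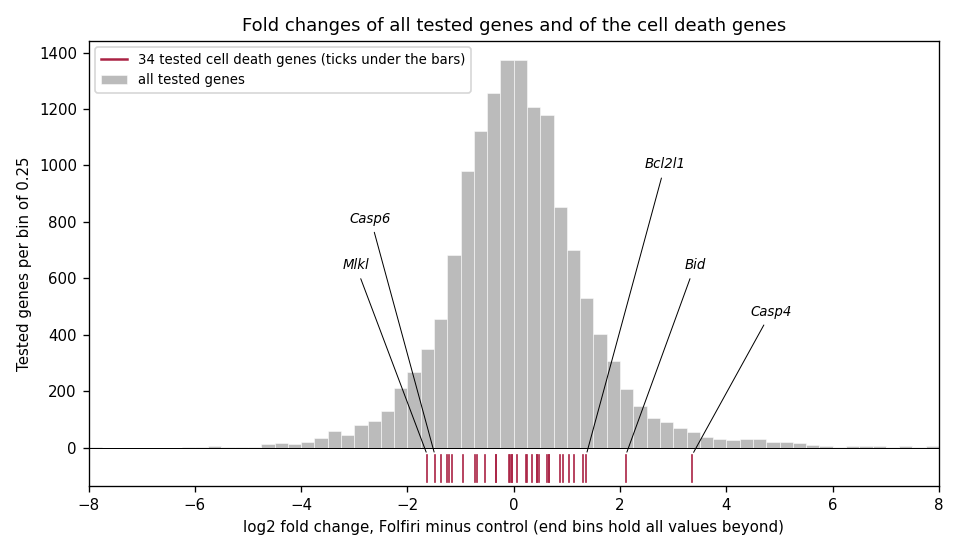
Histogram of log2 fold changes (Folfiri over control) of the 14692 genes tested, with the end bins holding all values beyond them, and the 34 cell death genes marked on the same axis. The members spread across the distribution, from Mlkl at -1.63 to Casp4 at 3.35.

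Among the anti-apoptotic BCL2 genes, the largest change was in Bcl2l1, which encodes BCL-XL. Bcl2l1 (chr2:152780668-152831728, minus strand, GRCm38) was at 88.9, 90.3 and 81.2 CPM in controls 1 to 3 and at 225.5, 219.7 and 224.7 CPM in Folfiri samples 1 to 3. All treated samples lay far above all controls, and the increase was 2.57-fold, at a log2 fold change of 1.36 (SE 0.07, edgeR adjusted p = 4.85e-08). Mcl1, a short-lived guard of the mitochondria, rose less, from 133.3, 143.2 and 145.0 CPM to 191.2, 201.0 and 190.4 CPM, with a log2 fold change of 0.47 (SE 0.07, edgeR adjusted p = 8.84e-05). The other two guards fell. Bcl2l2, which encodes BCL-W, was at 47.1 ± 2.17 CPM in the controls and 37.5 ± 1.38 CPM after Folfiri (SD, n = 3), with a log2 fold change of -0.33 (SE 0.08, edgeR adjusted p = 0.00207). Bcl2, the founding member of the family, was scarce in both groups, at 5.87, 3.72 and 3.86 CPM in the controls and 2.58, 2.58 and 3.19 CPM after Folfiri. Its log2 fold change was -0.70 (SE 0.20, edgeR adjusted p = 0.00834), and it was -0.44 without control 1, the highest of the 6 samples. With samples scaled by total counts alone, which moved the median log2 fold change of all genes from 0.02 to 0.30, the falls of Bcl2l2 and Bcl2 were -0.05 and -0.43 and no longer passed. Other genes overlapped 13.3% of the exonic length of Bcl2l2 and 6.09% of that of Bcl2.

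The 3 pore-forming effectors rose together, each by less than 2-fold. Bax, which moves from the cytosol into the mitochondrial membrane, was at 36.0, 39.3 and 35.2 CPM in the controls and 48.8, 48.0 and 52.2 CPM after Folfiri. Bak1, its resident counterpart on mitochondria, was at 52.4, 58.9 and 47.1 CPM and 70.0, 70.6 and 74.8 CPM. Bok, an effector that is less dependent on BH3-only partners, was at 50.8, 55.6 and 54.0 CPM and 78.2, 82.5 and 94.6 CPM. Treated samples lay above controls for all of them, with log2 fold changes of 0.43 (SE 0.08, edgeR adjusted p = 0.000449) for Bax, 0.44 (SE 0.09, edgeR adjusted p = 0.000882) for Bak1 and 0.67 (SE 0.09, edgeR adjusted p = 3.37e-05) for Bok. With DESeq2 size factors the same values were 0.43, 0.44 and 0.67, and under total counts they were 0.71, 0.72 and 0.95. Scaling by total counts moved fold changes upward in general, so it could not have turned a rise and is no test of its direction. Exons of Bax and Bak1 overlapped those of other annotated genes over 12.2% and 25.5% of their length, and the reads of those stretches cannot be assigned to either gene with certainty.

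The BH3-only genes went in different directions. Bid, whose product carries the death receptor signal to mitochondria once caspase-8 has cleaved it, was at 6.70, 4.64 and 3.14 CPM in the controls and 21.6, 20.3 and 21.7 CPM after Folfiri. The rise of Bid (chr6:120891930-120916853, minus strand) was 4.31-fold, at a log2 fold change of 2.11 (SE 0.20, edgeR adjusted p = 2.89e-06) that was 2.42 without control 1, and 17.7% of its exonic length overlapped Bcl2l13 on the other strand. Bad, which couples growth factor signalling to BCL-XL, rose from 15.9, 12.2 and 12.9 CPM to 22.2, 20.2 and 20.9 CPM (log2 fold change 0.63, SE 0.11, edgeR adjusted p = 0.000409), and 20.5% of its exonic length overlapped Gpr137 on the other strand. Bmf, linked to detachment from the matrix, fell from 16.2, 11.0 and 11.5 CPM to 9.39, 8.97 and 8.28 CPM. Its log2 fold change was -0.54 (SE 0.15, edgeR adjusted p = 0.00720), it came to -0.33 without control 1, and the call was lost under total counts at -0.27. Bcl2l11, which encodes BIM and had the highest level per kb of exon among these 5 BH3-only genes, was at 118.0, 111.1 and 104.7 CPM in the controls and 109.0, 110.9 and 104.8 CPM after Folfiri. The groups overlapped, and the 95% interval of its log2 fold change was -0.20 to 0.12. Bik, a BH3-only protein of the endoplasmic reticulum, overlapped as well, with 3.38 ± 0.396 CPM in the controls and 3.33 ± 0.389 CPM after Folfiri (SD, n = 3) and an interval of -0.38 to 0.33. Under total counts Bcl2l11 turned to 0.23 and passed, and Bik turned to 0.24 and did not.

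**Figure D3:**
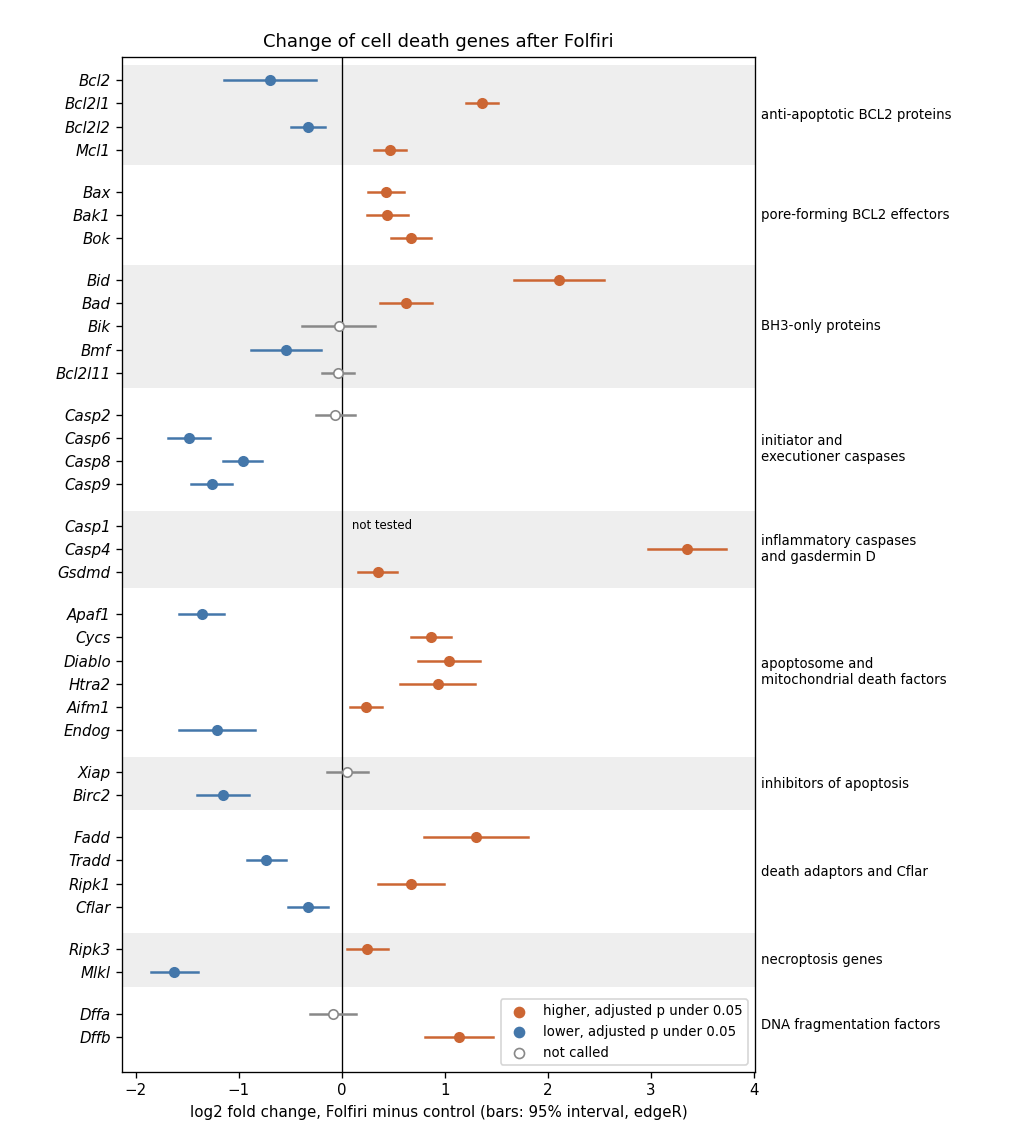
Log2 fold changes (Folfiri over control) of the 34 cell death genes tested, by role, with bars for the 95% confidence interval of the edgeR fit. The 3 pore-forming effectors lie above 0, between 0.43 and 0.67, and Casp6, Casp8 and Casp9 lie below, between -1.48 and -0.96.

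At the apoptosome, the carrier protein and its scaffold moved in opposite directions. Apaf1, the scaffold that forms the apoptosome, fell from 43.6, 36.0 and 35.9 CPM in the controls to 15.5, 14.9 and 14.7 CPM after Folfiri, 2.57-fold lower at a log2 fold change of -1.36 (SE 0.10, edgeR adjusted p = 4.51e-07). Casp9, the initiator caspase that the apoptosome activates, fell from 33.2, 36.1 and 39.2 CPM to 15.7, 14.7 and 14.8 CPM, 2.402-fold lower at -1.26 (SE 0.09, edgeR adjusted p = 4.20e-07). For both genes every treated sample lay below every control. Cycs, which encodes cytochrome c, rose from 100.1, 89.9 and 86.3 CPM to 154.9, 165.6 and 184.9 CPM at a log2 fold change of 0.87 (SE 0.09, edgeR adjusted p = 5.02e-06). Cytochrome c has processed pseudogenes of nearly the same sequence in the mouse genome, and how reads with several positions were counted is not stated, so the level of Cycs is less certain than those of its partners.

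Genes of the other proteins that leave the mitochondria moved in both directions as well. Diablo, whose product SMAC relieves caspases of their inhibitors, was at 3.89, 3.84 and 4.58 CPM in the controls and 8.32, 7.62 and 9.28 CPM after Folfiri (log2 fold change 1.04, SE 0.14, edgeR adjusted p = 3.84e-05). Htra2, a protease with the same inhibitor-binding motif, was at 9.33, 6.28 and 5.96 CPM and 12.6, 14.1 and 14.8 CPM (log2 fold change 0.93, SE 0.16, edgeR adjusted p = 0.000332). Both rose, but 42.8% of the exonic length of Diablo and 43.7% of that of Htra2 overlapped other genes, so part of their reads may come from neighbours. Aifm1, a flavoprotein of the intermembrane space that can move to the nucleus, was at 76.1 ± 3.69 CPM in the controls and 89.3 ± 3.21 CPM after Folfiri (SD, n = 3). Its log2 fold change was 0.23 (SE 0.07, edgeR adjusted p = 0.0109), and the call was lost without control 2 (0.20, adjusted p = 0.0646) or without control 3 (0.20, adjusted p = 0.0582). Endog, a mitochondrial endonuclease, fell from 5.72, 4.599 and 4.63 CPM to 2.08, 1.90 and 2.49 CPM (log2 fold change -1.21, SE 0.17, edgeR adjusted p = 5.68e-05), with 35.7% of its exonic length shared with Spout1 on the other strand.

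The caspases of the apoptotic cascade fell in 3 cases of 4, and none of them rose. Casp6, an executioner caspase that cleaves lamins, showed the steepest fall among them. Casp6 (chr3:129901425-129914103, plus strand) was at 23.9, 26.7 and 26.4 CPM in the controls and 9.42, 9.13 and 8.98 CPM after Folfiri, 2.79-fold lower at a log2 fold change of -1.48 (SE 0.09, edgeR adjusted p = 1.70e-07). Casp8, the initiator caspase of death receptors, fell from 79.1, 95.5 and 93.6 CPM to 44.6, 45.2 and 47.6 CPM (log2 fold change -0.96, SE 0.09, edgeR adjusted p = 2.22e-06). These falls kept their sign and call under every scaling tried. Casp2, an initiator linked to centrosome and DNA damage signals, was at 42.7, 49.4 and 49.7 CPM and 43.2, 44.9 and 47.4 CPM with overlapping groups, and its interval was -0.25 to 0.12. Among these caspases only Casp2 changed sign under total counts, to 0.21 with an adjusted p of 0.0245.

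Of the direct and indirect caspase inhibitors, one fell and one was not separable from no change. Birc2, which encodes the ubiquitin ligase cIAP1 of TNF receptor complexes, fell from 31.98, 41.0 and 42.1 CPM in the controls to 16.8, 18.2 and 16.5 CPM after Folfiri. The fall was 2.22-fold at a log2 fold change of -1.15 (SE 0.11, edgeR adjusted p = 3.95e-06), and the groups were far apart. Xiap, which binds caspases directly, was at 149.5, 148.1 and 159.8 CPM and 169.1, 168.9 and 137.0 CPM. Folfiri 3 lay below all controls and the other 2 treated samples above them, and the interval of the log2 fold change was -0.15 to 0.25. Under total counts Xiap passed as higher, at 0.33.

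Promoter sequence was available for 31 of the 35 genes in RefSeq (GRCm38.p6, 250 bases before to 50 after each annotated start), in 42 windows. Short motifs of transcription factors that respond to stress were searched on both strands, and 2 members whose changes are described above held the cAMP response element, TGACGTCA, upstream of their start: Cycs, which rose, at chr6:50566711-50566758, and Birc2, which fell, at chr9:7837065-7837112. Both are on the minus strand, read 5′ to 3′ along the gene, with the element in capitals.
Cycs: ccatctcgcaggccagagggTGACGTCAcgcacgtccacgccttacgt
Birc2: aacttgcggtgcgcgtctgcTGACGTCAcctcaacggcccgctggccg
The element was in 2 of the 42 windows (4.76%) and in 1.79% of all 32851 windows. The interferon-stimulated response element core, GAAANNGAA, was in 4 of the 42 windows (9.52%), those of Cflar, Ripk1, Ripk3 and Xiap, and in 8.56% of all windows.

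Genes of the death receptor complexes moved in both directions. Fadd, the adaptor that recruits caspase-8, was at 6.84, 3.36 and 3.44 CPM in the controls and 11.6, 11.4 and 11.3 CPM after Folfiri. All treated samples were higher, at a log2 fold change of 1.30 (SE 0.23, edgeR adjusted p = 0.000316), and control 1 stood apart from the other controls, without which the value was 1.75. Ripk1, the kinase at the branch point between survival, apoptosis and necroptosis, showed the same arrangement, with 34.9, 23.3 and 22.5 CPM in the controls and 43.4, 43.0 and 42.5 CPM after Folfiri. Its log2 fold change was 0.67 (SE 0.15, edgeR adjusted p = 0.00143), and 0.91 without control 1. Other genes overlapped 6.12% of the exonic length of Fadd and 9.01% of that of Ripk1. Tradd, the adaptor of TNF receptor 1, fell from 42.1, 39.7 and 36.8 CPM to 24.6, 22.2 and 24.7 CPM (log2 fold change -0.73, SE 0.09, edgeR adjusted p = 1.63e-05). Cflar, which encodes cFLIP, the catalytically inactive partner that holds caspase-8 in check, was at 74.9, 80.7 and 81.4 CPM and 69.1, 64.1 and 55.9 CPM. Its log2 fold change was -0.33 (SE 0.09, edgeR adjusted p = 0.00572), but under total counts it was -0.05 and did not pass.

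In the necroptosis pathway the kinase and its executioner parted. Ripk3, the kinase that phosphorylates MLKL, was at 82.8, 99.8 and 100.7 CPM in the controls and 108.6, 108.1 and 119.7 CPM after Folfiri. The groups did not overlap, but the rise was small, at a log2 fold change of 0.25 (SE 0.09, edgeR adjusted p = 0.0241). Without control 1 it was 0.16, and without Folfiri 3 it was 0.20 and did not pass (adjusted p = 0.0830). Mlkl, the protein that permeabilizes the plasma membrane, had the deepest fall of the 34 genes with all samples in the fit. Without control 1, Mlkl and Casp6 were both at a log2 fold change of -1.53. Mlkl (chr8:111311797-111338177, minus strand) was at 51.7, 44.2 and 41.9 CPM in the controls and 14.02, 14.6 and 16.0 CPM after Folfiri. Every treated sample was far below every control, 3.09-fold on average, at a log2 fold change of -1.63 (SE 0.10, edgeR adjusted p = 1.70e-07).

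The inflammatory branch held the steepest rise. Casp4, the mouse gene for caspase-11, which senses bacterial lipopolysaccharide in the cytosol and cleaves gasdermin D, lies at chr9:5308828-5336783 on the plus strand. It had 75, 40 and 34 counts in controls 1 to 3 and 579, 672 and 717 counts in Folfiri samples 1 to 3, or 2.70, 1.60 and 1.75 CPM and 19.4, 21.7 and 21.8 CPM. All 3 treated samples were far above the controls. The rise was 10.2-fold, at a log2 fold change of 3.35 (SE 0.17, edgeR adjusted p = 4.42e-08) that was 3.65 without control 1 and 3.62 under total counts. Gsdmd, which encodes gasdermin D, the pore of pyroptosis, was already abundant in the controls, at 46.1, 52.9 and 54.2 CPM, and rose to 63.7, 62.5 and 68.8 CPM (log2 fold change 0.35, SE 0.08, edgeR adjusted p = 0.00294). Casp1, the caspase of canonical inflammasomes, had 0, 0 and 0 counts in the controls and 0, 1 and 1 counts after Folfiri. It was at or under the floor of 3 counts in every sample, which corresponds to 0.0909 to 0.154 CPM, so no fold is given and no difference was detectable at this depth.

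Stretches from promoter windows of Casp4 and Bcl2l1, the genes with the strongest rise in the pyroptosis and anti-apoptotic groups, are shown because both hold matches to the NF-kB consensus, a site of 10 bases known for genes of inflammation. The matches are in capitals, on the strand of the gene, read 5′ to 3′, at chr9:5308736-5308785 and chr9:5308790-5308839 for Casp4 and at chr2:152830930-152830967 for Bcl2l1.
Casp4, farther from the start: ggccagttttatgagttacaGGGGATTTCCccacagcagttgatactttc
Casp4, nearer to the start: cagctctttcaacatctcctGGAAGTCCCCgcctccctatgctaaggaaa
Bcl2l1: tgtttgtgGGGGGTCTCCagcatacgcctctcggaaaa
The farther match of Casp4 begins 93 bases before the RefSeq start of its window and overlaps another match shifted by 1 base, and the nearer one begins 39 bases before that start, which lies inside the GENCODE span of the gene. The stretch of Bcl2l1 belongs to an alternative RefSeq start and lies inside the GENCODE span of the gene, not before its 5′ end. The consensus was in 6 of the 42 windows (14.3%), which belong to 5 genes, with Bmf, Xiap and Aifm1 besides these, and in 8.46% of all windows. This pattern was adopted after the Casp4 promoter had been read, so the share among these windows counts the gene it was chosen on and is no basis for a comparison. Of those 5 genes 3 rose, Bmf fell and Xiap did not pass. None of these stretches held a match to either of the other motifs. A match is a run of letters and was not linked to binding here.

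Of the DNA fragmentation factors, the nuclease gene passed the test and its inhibitor did not. Dffb, which encodes the caspase-activated DNase, rose from 3.24, 3.68 and 3.65 CPM in the controls to 7.28, 6.91 and 9.01 CPM after Folfiri (log2 fold change 1.14, SE 0.15, edgeR adjusted p = 3.74e-05). Dffa, its inhibitor and chaperone, was at 15.6, 16.9 and 15.9 CPM and 16.9, 14.5 and 14.3 CPM. Here the groups overlapped, with an interval of -0.31 to 0.14, and the sign turned to 0.19 under total counts.

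Levels of different genes can be compared after division by exonic length, as CPM per kb. In the controls the cell death transcripts at the highest levels were Ripk3 and Mcl1, followed by Casp8. Ripk3 was at 41.2 ± 4.40 CPM per kb in the controls and 48.9 ± 2.87 after Folfiri, and Mcl1 at 41.1 ± 1.85 CPM per kb in the controls and 56.8 ± 1.73 after Folfiri, so neither neighbour in that order was separable from the other in the controls. Casp8 was at 30.9 ± 3.11 CPM per kb in the controls and 15.8 ± 0.548 after Folfiri, which took it from rank 3 to rank 11 of the 35. Bok, at 29.1 ± 1.32 CPM per kb in the controls, lay within the SD of Casp8 there, so that rank 3 is not firm. Bcl2l1 was at 18.9 ± 1.07 CPM per kb in the controls and 48.7 ± 0.688 after Folfiri and moved from rank 12 to rank 4, level with Ripk3, Cycs and Bok within their SD. Mlkl moved from rank 10 to rank 16, at 19.9 ± 2.24 CPM per kb in the controls and 6.46 ± 0.446 after Folfiri. Casp4, for all its rise, was at 0.543 ± 0.161 CPM per kb in the controls and 5.65 ± 0.359 after Folfiri and reached only rank 19. Bid was at 1.36 ± 0.504 CPM per kb in the controls and 5.97 ± 0.211 after Folfiri and moved from rank 29 to rank 18. Apaf1 and Casp6 ended side by side at ranks 31 and 32, at 4.27 ± 0.490 CPM per kb in the controls and 1.67 ± 0.0488 after Folfiri for Apaf1 and 4.596 ± 0.268 CPM per kb in the controls and 1.64 ± 0.0402 after Folfiri for Casp6. Bcl2 was the lowest tested gene in both groups, at 0.489 ± 0.132 CPM per kb in the controls and 0.304 ± 0.0381 after Folfiri.

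**Figure D4:**
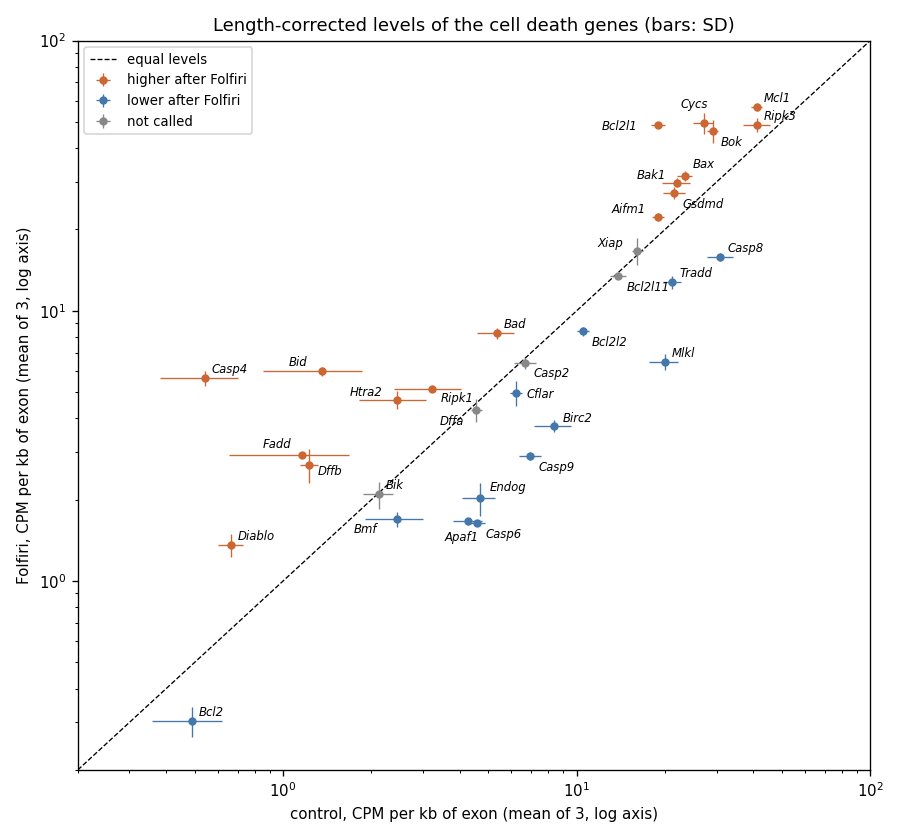
Mean CPM per kb of exon of the 34 tested cell death genes in the 3 control samples (horizontal, log axis) against the 3 Folfiri samples (vertical, log axis), with bars for the SD and a dashed line for equal levels. Casp4 and Bid lie far above the line, and Mlkl, Apaf1 and Casp6 far below it.

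Ratios of read counts within a sample do not depend on how samples are scaled, and they set proteins known to act as partners side by side. They do depend on the exonic lengths of both genes, so only their change between the groups can be read. The pairs were picked with the values known and are given without a test. Bcl2l1 over Bcl2l11 was 0.781 ± 0.0303 in the controls and 2.06 ± 0.0819 after Folfiri (SD, n = 3). Per kb of exon Bcl2l1 was above Bcl2l11 in both groups, with Bcl2l11 at 13.9 ± 0.828 CPM per kb in the controls and 13.5 ± 0.392 after Folfiri and Bcl2l1 at the levels given above. Bcl2l1 over Bax was 2.36 ± 0.0939 in the controls and 4.50 ± 0.173 after Folfiri. Per kb of exon, Bax was at 23.4 ± 1.37 CPM in the controls and 31.5 ± 1.43 after Folfiri. By that measure Bcl2l1 was below Bax in the controls and above it after Folfiri. Bcl2l1 over Bcl2 was 20.2 ± 4.63 in the controls and 81.0 ± 9.12 after Folfiri. Mcl1 over Bak1, by contrast, was 2.68 ± 0.343 in the controls and 2.71 ± 0.152 after Folfiri, with overlapping samples. Apaf1 over Cycs was 0.418 ± 0.0176 in the controls and 0.0898 ± 0.0104 after Folfiri, which is 4.65-fold lower. Mlkl over Ripk3 was 0.494 ± 0.113 in the controls and 0.133 ± 0.00325 after Folfiri, with 0.624 in control 1 against 0.416 to 0.443 in the other controls. Casp8 over Cflar was 1.13 ± 0.0662 in the controls and 0.735 ± 0.106 after Folfiri, which is 1.54-fold lower. Per kb of exon Casp8 stayed above Cflar in both groups. Cflar was at 6.24 ± 0.282 CPM per kb in the controls and 4.98 ± 0.526 after Folfiri, and Casp8 at 30.9 ± 3.11 and 15.8 ± 0.548. Diablo over Xiap was 0.0269 ± 0.00155 in the controls and 0.0540 ± 0.0121 after Folfiri, and Dffb over Dffa was 0.219 ± 0.0108 in the controls and 0.513 ± 0.106 after Folfiri. For all of these but Mcl1 over Bak1 the 2 groups did not overlap.

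**Figure D5:**
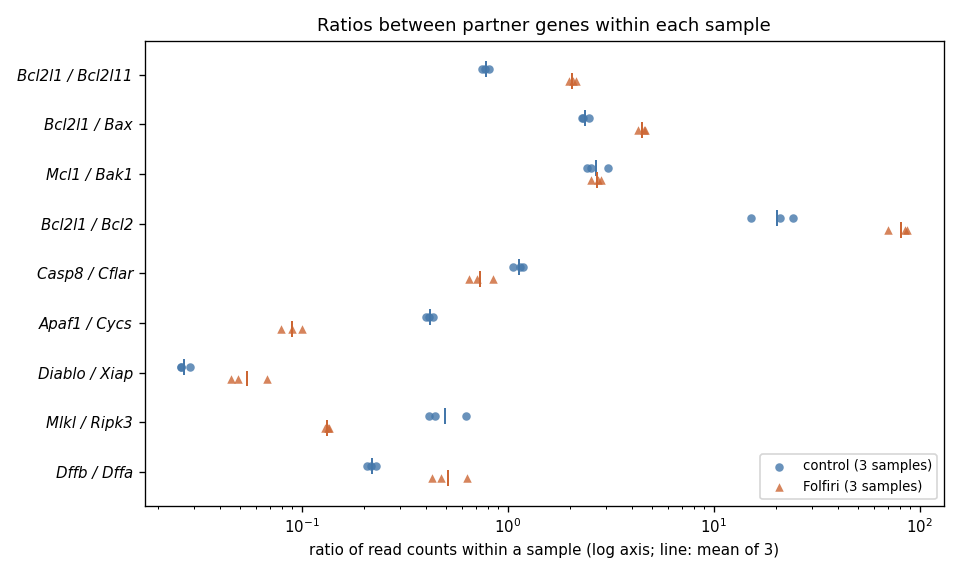
Ratio of read counts of 2 partner genes within each sample (log axis), with circles for the 3 control samples and triangles for the 3 Folfiri samples. The groups overlap for Mcl1 over Bak1 and are apart for the other pairs, with Apaf1 over Cycs and Mlkl over Ripk3 lower after Folfiri.

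Another 60 genes of the same pathways were listed beside these 35. The shares called in their 4 lists were 88.9% of the tested BCL2 family genes, 78.6% of the caspases and inhibitors, 83.3% of the necroptosis and death complex genes and 71.4% of the gasdermin and inflammasome genes, to be read against the 79.1% called over all genes tested (40.3% higher and 38.8% lower). Of the other BCL2 family genes 3 were higher and 5 lower of 9 tested. Bbc3, which encodes the BH3-only protein PUMA, fell from 14.04, 28.6 and 26.4 CPM in the controls to 3.79, 4.07 and 3.91 CPM after Folfiri (log2 fold change -2.54, SE 0.24, edgeR adjusted p = 3.05e-06). Bnip3 and Bnip3l, mitophagy receptors with BH3-like domains that are known to respond to low oxygen, fell further than any of the 35, with log2 fold changes of -3.42 (SE 0.13, edgeR adjusted p = 6.94e-09) and -1.95 (SE 0.10, edgeR adjusted p = 4.85e-08). The largest rise among the tested genes of that list was Bcl2l12, at a log2 fold change of 0.59, with 33.4% of its exonic length overlapping other genes, and 22.3% of that of Bnip3 did. Of the other caspases, inhibitors and apoptosome partners, 5 were higher and 6 lower of 14. Birc3, the paralog of Birc2 that encodes cIAP2, rose from 11.7, 9.04 and 8.64 CPM to 27.3, 27.7 and 27.9 CPM at a log2 fold change of 1.49 (SE 0.12, edgeR adjusted p = 8.35e-07), opposite to Birc2. Casp12 and Pidd1 rose, with log2 fold changes of 2.31 and 1.38, and Cradd, the adaptor between PIDD1 and caspase-2, fell at a log2 fold change of -2.17. Naip1, at a log2 fold change of 1.14, has near-identical paralogs that fell, Naip2 at -0.71, Naip5 at -0.38 and Naip6 at -0.66. Under total counts Naip2 was at -0.44 and Naip5 at -0.10 and neither passed, and the counts of all 4 are uncertain.

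Of the other necroptosis and death complex genes, 7 were higher and 3 lower of 12. Tnfaip3, which encodes the ubiquitin-editing enzyme A20, rose from 12.6, 11.6 and 12.4 CPM to 34.97, 37.1 and 34.8 CPM (log2 fold change 1.55, SE 0.08, edgeR adjusted p = 7.00e-08). Traf2 and Pgam5 rose, with log2 fold changes of 1.24 and 1.21, and 58.1% of the exonic length of Pgam5 overlapped Gm26718 on the other strand. Fas, the death receptor upstream of Fadd and Casp8, had 3, 9 and 3 counts in the controls and 29, 26 and 28 counts after Folfiri (edgeR adjusted p = 0.000403), and no fold is given because of the controls' low counts. The largest fall among the tested genes there was that of Ticam1, the adaptor TRIF, at a log2 fold change of -0.58, but it was -0.27 and did not pass without control 1 (edgeR adjusted p = 0.0675). Under total counts Ticam1, Rbck1 and Sharpin, the 3 lower genes of the list, were at -0.32, -0.12 and -0.05, and none of them passed. Of the other gasdermin and inflammasome genes, 3 were higher and 2 lower of 7 tested, and 9 did not pass the filter. Pycard, the inflammasome adaptor ASC, had 2, 1 and 0 counts in the controls and 39, 62 and 55 counts after Folfiri (edgeR adjusted p = 2.39e-06). Il18, an inflammasome substrate, had 1, 1 and 2 counts and 19, 23 and 23 counts (edgeR adjusted p = 2.34e-05), and no fold is given for either because of the controls' low counts. The deepest fall among the tested genes of this list was Ninj1, which encodes the protein that ruptures the membrane after pyroptosis, at -0.49 (SE 0.08, edgeR adjusted p = 0.000209). Under total counts the numbers higher and lower in these lists were 3 and 4 for the BCL2 family, 7 and 2 for caspases and inhibitors, 9 and 0 for necroptosis and death complexes, and 5 and 1 for gasdermins and inflammasomes.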

How the data were processed

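RNA of 6 samples of MTO54 organoids was sequenced after poly(A) selection, 3 control and 3 Folfiri. Alignment by the authors used STAR 2.5.2 on the mouse genome (GRCm38), and they counted reads per gene with Rsubread and GENCODE annotation, and deposited raw counts. The strand setting and the handling of reads with several positions are not given in the sources used here, and the library kit does not mark strand, so overlapping genes on opposite strands cannot be told apart. Symbols, positions and exon lengths came from GENCODE vM21 on the same build, which gave a symbol to 24124 of the 24190 gene IDs.

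Counts were filtered with filterByExpr at default settings, scaled by TMM and tested with edgeR 4.0.16 in R 4.3.3 by the quasi-likelihood test without covariates, with Benjamini-Hochberg adjustment over 14692 genes and a threshold of 0.05. In data simulated from these counts, 181 of 200 genes given 2-fold differences passed with the right sign, and 10 unaltered genes passed (14471 genes in the run). Only those 200 genes were altered, evenly up and down, with the same dispersion for every gene and no replicate set apart. In the real data 79.1% of genes passed, so the simulation does not measure the error rate there. A floor of 3 counts was chosen, which is 0.0909 to 0.154 CPM per sample.

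The alternatives were other scalings, other filters, the Wald test of DESeq2 1.42.0, a replicate block and each sample left out in turn. Samples were grouped by the labels. The 35 genes, the pathway lists, the partner pairs, the promoter motifs and the rule for names were chosen with earlier results of these data known. The rule named all 35 genes and, from the pathway lists, called genes whose log2 fold change was at least 1 in size and the largest change in each direction. The NF-kB consensus replaced a narrower pattern, found in no promoter window of the 35 genes, after the Casp4 promoter had been read. Bases of promoters were read from RefSeq tables of GRCm38.p6. Figures were drawn with matplotlib 3.10.9. Some items are not reported here.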

Additional observations from a re-analysis of the deposited data

How the results depend on the processing

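Over 13 alternatives, 16 to 20 of the cell death genes were higher and 8 to 12 lower, and 10630 to 12742 genes were called in all. Of the 29 called cell death genes, 23 kept their call and direction throughout and 6 changed under at least 1 alternative. Scaling by total counts moved most: 20 were higher and 8 lower (71.4% higher against 58.6%), while over all genes the higher share went from 51.0% to 63.3%. It turned Bik to 0.24, Bcl2l11 to 0.23, Casp2 to 0.21 and Dffa to 0.19 on the log2 scale, ended the calls of Bcl2, Bcl2l2, Bmf and Cflar, and made Xiap, Bcl2l11 and Casp2 pass as higher. Upper quartile scaling turned Bik to 0.0253 and Bcl2l11 to 0.0142. With single samples left out, the log2 fold change of Bik ranged from -0.12 to 0.0657 and that of Bcl2l11 from -0.0915 to 0.0049, 11021 to 12312 genes were called, and Aifm1 and Ripk3 lost their calls in the fits named above. With a replicate block, 17 and 12 cell death genes and 11499 genes in all were called. Replicate numbers are shared across groups only as numbers: the correlations of deviations of same-numbered samples were 0.0267, -0.117 and 0.0393, and the block changed no call of the 34 genes. The DESeq2 Wald test called the same numbers, 17 and 12, and 11758 in all. Without the expression filter 52.7% of genes were called, since more low genes entered. Depth limits Casp1, and its absence cannot be stated.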
